A study of Mus musculus with 24 samples.

Results

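The 10 genes described here are Arc, Homer1, Nptx2, Rgs2, Plk2, Tiparp, Gadd45b, Gadd45g, Midn and Lmna. They are grouped as activity-induced effectors, with proteins that act at synapses, in signalling or in the nucleus. Nptx2, Midn and Lmna were not called higher after the task in these data. The 10 genes were chosen by name, as the platform's gene symbol, out of 19938 genes measured in the hippocampus, and all 10 were found. The choice was made with earlier results of these data known. Each was measured by 1 probe, that is, 1 transcript cluster of the array. The hippocampus was cut out of brain slices of 300 µm. All mice were males of 8 to 9 weeks with a C57BL/6J-129sv mixed background. Wild type (WT, FoxO6 +/+) and homozygous mutant mice (FoxO6 -/-, labelled FoxO6 null), which lack the forkhead transcription factor FoxO6, were each sampled in 2 states, with 6 arrays in each of the 4 groups. Basal mice had been housed alone for at least 3 days. Learning mice were handled daily, met the empty arena for 10 min at 24 h before the task, were acclimatized to the procedure room for 60 min, were given 10 min with a pair of objects of the same kind, and were killed 60 min later. The difference between states therefore covers housing, handling, transfer, arena and objects together, and these cannot be told apart. How the null allele was made was not analysed here. The labels do not say which arrays were processed together, so a processing batch that coincides with a state could not be told apart from the state either.

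When a neuron fires, calcium entry and kinase cascades switch on genes within minutes. Transcription factors such as Fos and Egr1 come first, together with effector genes whose products act directly on the cell. Arc carries AMPA receptors off the synaptic surface by endocytosis. Homer1 makes long scaffold forms that tie metabotropic glutamate receptors to the postsynaptic density, and a short form, Homer1a, induced by activity, that uncouples them. Nptx2 is a secreted pentraxin that gathers AMPA receptors. In the hippocampus Arc RNA is widely used as a mark of cells engaged by a recent experience. The comparisons below ask how the RNA of these genes differed after the task, whether it differed between genotypes, and whether the response to the task did.

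All levels are log2 values made by robust multi-array averaging (RMA), so a difference of 1 stands for a 2-fold change. A level says nothing about how one gene stands against another, because probes differ in brightness, and each gene was compared only with itself. Foxo6 checked the labels: it spanned 6.62 to 7.30 in the 12 WT arrays and 5.98 to 6.59 in the 12 mutant arrays, without overlap. Array medians over genes lay between 6.88 and 6.93, and arrays of the same group correlated across genes at 0.991 to 0.997. Of the markers of hippocampal pyramidal and dentate neurons, 10 of 12 stood above the median gene in every array of each group. Choroid plexus tissue varied between arrays: the summed linear signal of its 9 measured markers ran from 926 to 5279 in WT basal arrays and from 885 to 1749 in WT learning arrays. In the mutant it ran from 2666 to 4974 at basal and from 896 to 4009 after learning. In bulk tissue, fewer cells of a type and less RNA per cell cannot be told apart. The number of arrays limits the precision of every value, and the labels call the arrays biological replicates without naming animals. The tests therefore weigh differences against the spread among arrays, which may be technical in part.

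Promoter sequences were at hand for 8 of the 10 genes, in 11 windows from RefSeq (GRCm38.p6) that run from 250 bases before to 50 bases after an annotated start. The windows of Homer1, Rgs2, Plk2 and Midn are shown because they were the 4 genes whose windows held the half-site of the cyclic AMP response element (CRE), TGACG, which the activity-regulated factor CREB is known to bind. Each runs 5′ to 3′ on the gene's strand, and capitals mark TGACG or its reverse complement CGTCA. The Homer1 window is chr13:93303507-93303806 on the plus strand, that of Rgs2 chr1:144004100-144004399 on the minus strand, that of Plk2 chr13:110394794-110395093 on the plus strand and that of Midn chr10:80148022-80148321 on the plus strand.
Homer1: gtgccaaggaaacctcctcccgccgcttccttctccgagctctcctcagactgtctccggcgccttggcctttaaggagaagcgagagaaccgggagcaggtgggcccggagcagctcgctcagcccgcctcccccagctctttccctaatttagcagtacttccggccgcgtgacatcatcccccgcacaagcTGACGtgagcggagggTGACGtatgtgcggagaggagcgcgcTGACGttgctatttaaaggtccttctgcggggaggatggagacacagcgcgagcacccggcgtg
Rgs2: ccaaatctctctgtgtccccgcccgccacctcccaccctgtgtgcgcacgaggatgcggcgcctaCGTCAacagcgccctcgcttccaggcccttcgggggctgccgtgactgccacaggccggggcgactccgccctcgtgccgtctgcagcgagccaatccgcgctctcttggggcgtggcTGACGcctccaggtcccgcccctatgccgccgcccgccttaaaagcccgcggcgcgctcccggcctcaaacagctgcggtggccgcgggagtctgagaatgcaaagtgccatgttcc
Plk2: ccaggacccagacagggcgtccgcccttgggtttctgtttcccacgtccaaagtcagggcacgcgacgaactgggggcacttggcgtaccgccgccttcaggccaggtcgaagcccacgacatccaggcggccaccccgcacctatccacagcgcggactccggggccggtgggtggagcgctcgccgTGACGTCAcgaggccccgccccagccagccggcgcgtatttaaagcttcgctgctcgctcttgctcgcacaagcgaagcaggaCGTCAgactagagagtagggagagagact
Midn: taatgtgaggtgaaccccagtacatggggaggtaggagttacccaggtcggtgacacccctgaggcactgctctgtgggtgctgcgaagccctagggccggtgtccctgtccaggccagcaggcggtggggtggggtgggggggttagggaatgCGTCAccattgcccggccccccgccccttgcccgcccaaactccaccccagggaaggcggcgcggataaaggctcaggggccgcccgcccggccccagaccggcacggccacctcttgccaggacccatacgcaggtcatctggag
The half-site was found 3 times in the Homer1 window and 3 times in that of Plk2, 2 times for Rgs2 and once for Midn. In Plk2, a pair of them overlap in a full CRE, TGACGTCA, whose first base lies 62 bases before the start. Of all 32851 windows of this length, 20.8% held the half-site and 1.79% the full CRE, on either strand. A TATA element (TATAAA) stood in the windows of Gadd45b, at position -46, and Gadd45g, at -27, against 13.6% of all windows. The related letters TATTTAA stood in those of Homer1, at -5, and Plk2, at -26, against 4.51%. An AP-1 site (TGANTCA) was found in 1 Lmna window, against 7.81%. The FoxO core (TGTTTAC, 3.65% of all windows), the EGR site (GCGGGGGCG, 2.91%) and the CArG box bound by SRF (1.63%) were in 0 of the 11 windows. These matches describe letters in a window. The second windows of Homer1 and Midn and those of Tiparp, Gadd45b, Gadd45g and Lmna held no half-site.

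After the task 7 of the 10 genes rose in WT mice: Arc, Homer1, Rgs2, Plk2, Tiparp, Gadd45b and Gadd45g. Midn and Lmna fell, and Nptx2 did not pass the test. The 7 risers span from 1.21-fold (Plk2) to 1.83-fold (Arc). These changes stood in a hippocampus in which very many genes differed between the states. With limma and a Benjamini-Hochberg adjusted p under 0.05, 43.3% of the 19938 genes passed in WT, 25.1% as higher after the task and 18.2% as lower. The count of 7 risers is read against that 25.1%. The genes were chosen with earlier results of these data known, so counts above the shares of all genes are a description and not a test. The bar is higher for size: 3.58% of all genes were called and higher by at least 0.5 on the log2 scale, and 5 of the 10 reached it, namely Arc, Tiparp, Gadd45b, Gadd45g and Rgs2. The median difference was 0.50 over the 10 genes and 0.03 over all genes. In 13.8% of all genes every WT learning array lay above every WT basal array, as it did for the same 7 genes. In 11.4% every one lay below, which held for 0 of the 10.

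**Figure D1:**
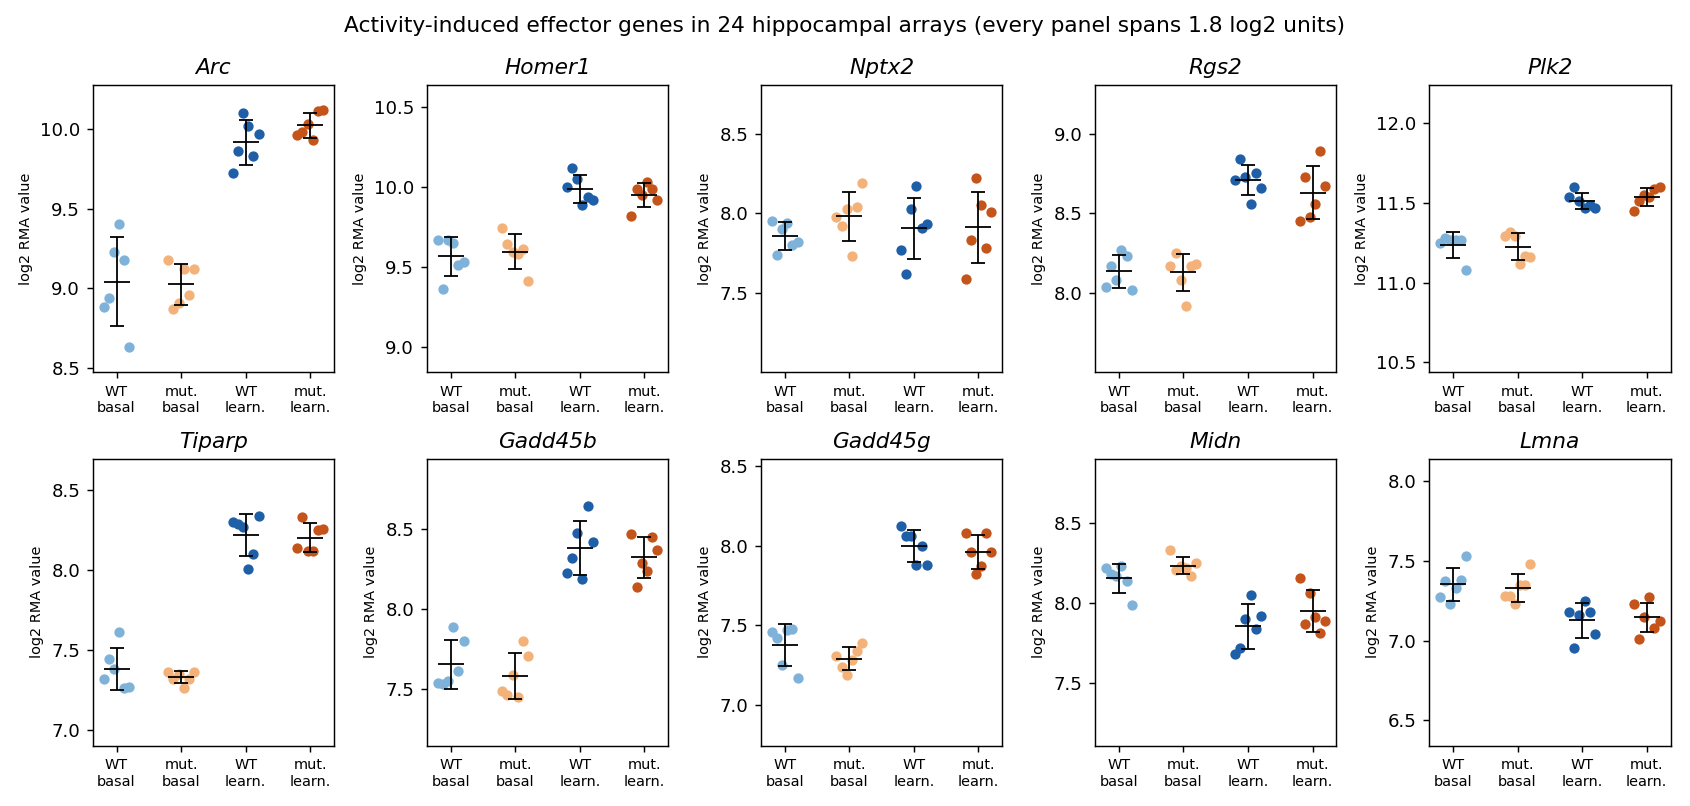
Each point is the log2 RMA value of 1 of 24 hippocampal arrays, in 10 panels for the 10 genes, with bars for the mean and standard deviation of the 6 arrays of a group; every panel spans 1.8 log2 units, and mut. and learn. stand for mutant and learning. Arc, Homer1, Rgs2, Plk2, Tiparp, Gadd45b and Gadd45g stand higher in all learning arrays of their genotype, Midn and Lmna lower on average, and Nptx2 at much the same level.

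Arc (probe 10429491), which acts in AMPA receptor endocytosis, had the largest difference of the 10 in both genotypes. In WT basal arrays it ran from 8.63 to 9.40 with a median of 9.06, and in WT learning arrays from 9.72 to 10.10 with a median of 9.91. In the mutant it ran from 8.87 to 9.18 at basal (median 9.04) and from 9.93 to 10.12 after learning (median 10.00). So the learning arrays lay above the basal arrays of either genotype with no overlap, and the WT basal arrays were the most scattered group, with an SD of 0.28 against 0.08 in the mutant learning group (n = 6 each). The difference was 0.87 in WT (SE 0.0875, 1.83-fold, 95% interval 1.62 to 2.07, limma adjusted p = 1.84e-09). It was 1.00 in the mutant (1.99-fold, 1.76 to 2.26, limma adjusted p = 1.34e-10). In WT 51 genes of the table had a larger difference than Arc, which ranked 52, and in the mutant it ranked 21.

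Homer1 (probe 10406626) rose less. Its basal values were 9.36 to 9.67 in WT (median 9.59) and 9.41 to 9.74 in the mutant (median 9.60). After learning they were 9.89 to 10.12 (median 9.97) and 9.82 to 10.03 (median 9.97). The states did not overlap in either genotype, although in the mutant the gap between them was 0.08. WT arrays rose 1.34-fold (0.42, SE 0.0543, limma adjusted p = 1.93e-07) and mutant arrays 1.28-fold (0.36, limma adjusted p = 3.02e-06). The probe sums over a transcript cluster of a gene for which RefSeq lists 5 transcripts, so the short induced form and the long scaffold forms were not separated here.

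Nptx2 (probe 10527332), the AMPA receptor clustering pentraxin, did not differ detectably between states. It lay between 7.74 and 7.95 in WT basal arrays (median 7.86) and between 7.62 and 8.17 in WT learning arrays (median 7.92). Mutant basal arrays spanned 7.73 to 8.19 (median 8.01) and mutant learning arrays 7.59 to 8.22 (median 7.92). All 4 groups overlapped. The SD was 0.09 at basal and 0.19 after learning in WT, and 0.15 and 0.22 in the mutant. The difference was 0.05 in WT (95% interval −0.13 to 0.23, limma adjusted p = 0.701) and −0.07 in the mutant (−0.25 to 0.11, limma adjusted p = 0.585). The WT interval ended at 1.17-fold on the high side. That is below the lower bound of every riser's WT interval other than that of Plk2 (1.15-fold). The mutant interval ended at 1.08-fold, below the lower bound of every riser's mutant interval, of which that of Plk2 was lowest (1.18-fold).

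Rgs2 and Plk2 limit signalling downstream of activity. Rgs2 (probe 10358389) speeds GTP hydrolysis on Gq proteins, the class that metabotropic glutamate and muscarinic receptors use. It ran from 8.02 to 8.27 in WT basal arrays (median 8.13) and from 8.56 to 8.84 in WT learning arrays (median 8.72). The mutant gave 7.92 to 8.25 (median 8.17) and 8.45 to 8.89 (median 8.61). Every learning array was above every basal array of its genotype, with a 1.49-fold difference in WT (0.57, SE 0.0672, limma adjusted p = 3.63e-08) and 1.41-fold in the mutant (0.50, limma adjusted p = 3.74e-07). Plk2 (probe 10407126), a Polo-like kinase that weakens overactive synapses by removing the spine protein SPAR, changed least of the 7 but with the smallest error. Its values were 11.08 to 11.28 in WT basal (median 11.27) and 11.47 to 11.60 in WT learning arrays (median 11.50). In the mutant they were 11.12 to 11.32 (median 11.23) and 11.45 to 11.60 (median 11.54). Groups of different state did not overlap. The rise was 1.21-fold in WT (0.28, SE 0.0390, limma adjusted p = 7.55e-07) and 1.24-fold in the mutant (0.31, limma adjusted p = 1.04e-07). Of all genes, 13.5% had a larger WT difference than Plk2.

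Tiparp, Gadd45b and Gadd45g followed Arc in size, in that order. Tiparp (probe 10492428), also called PARP7, attaches single ADP-ribose units to proteins and is a known target and repressor of the aryl hydrocarbon receptor. It ran from 7.26 to 7.61 in WT basal arrays (median 7.35) and from 8.01 to 8.34 in WT learning arrays (median 8.28). Mutant basal arrays were the tightest group of all 40 compared (10 genes in 4 groups), 7.26 to 7.36 (median 7.34, SD 0.04), against 8.12 to 8.33 after learning (median 8.20). With no overlap in either genotype, Tiparp gave the smallest p of the 10 genes: 1.79-fold in WT (0.84, SE 0.0621, limma adjusted p = 4.60e-12) and 1.83-fold in the mutant (0.88, limma adjusted p = 1.84e-12). It ranked 68 of all genes in WT and 54 in the mutant by size.

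Gadd45b and Gadd45g belong to a family of small stress and growth-arrest proteins that bind the kinase MAP3K4 and take part in active DNA demethylation. Gadd45b (probe 10364950) ran from 7.53 to 7.89 in WT basal arrays (median 7.58) and from 8.19 to 8.65 in WT learning arrays (median 8.37). In the mutant it ran from 7.45 to 7.80 (median 7.54) and from 8.14 to 8.47 (median 8.33). Gadd45g (probe 10405211) ran from 7.17 to 7.48 (median 7.44) and from 7.88 to 8.12 (median 8.03) in WT, and from 7.19 to 7.39 (median 7.30) and from 7.82 to 8.08 (median 7.96) in the mutant. For both genes the learning arrays of each genotype stood clear of its basal arrays, by 0.30 to 0.43 on the log2 scale. Gadd45b rose 1.65-fold in WT (0.73, SE 0.0797, limma adjusted p = 1.05e-08) and 1.68-fold in the mutant (0.74, limma adjusted p = 6.48e-09). The rise of Gadd45g was 1.54-fold in WT (0.62, SE 0.0623, limma adjusted p = 1.76e-09) and 1.59-fold in the mutant (0.67, limma adjusted p = 4.10e-10). The remaining member of the family, Gadd45a, rose as well, 1.71-fold in WT (0.78, limma adjusted p = 7.83e-12) and 1.62-fold in the mutant (0.70, limma adjusted p = 6.35e-11).

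Midn and Lmna went the other way. Midn (probe 10364702) encodes midnolin, which delivers short-lived nuclear proteins, products of immediate early genes among them, to the proteasome. It ran from 7.99 to 8.23 in WT basal arrays (median 8.17) and from 7.68 to 8.05 in WT learning arrays (median 7.87). In the mutant it ran from 8.17 to 8.33 (median 8.23) and from 7.81 to 8.16 (median 7.90). The WT groups overlapped by 0.07, and the mutant groups were parted by less than 0.01, so the distance between them rests on single arrays. Midn fell to 0.812-fold in WT (−0.30, SE 0.0625, limma adjusted p = 0.000211) and to 0.821-fold in the mutant (−0.28, limma adjusted p = 0.000417). Lmna (probe 10499394) encodes lamin A and lamin C of the nuclear lamina, which cells outside the neuronal lineage, those of vessels among them, make in quantity. It lay between 7.23 and 7.53 in WT basal arrays (median 7.35) and between 6.95 and 7.25 in WT learning arrays (median 7.17). Mutant arrays gave 7.23 to 7.48 (median 7.32) and 7.01 to 7.27 (median 7.13). The states overlapped by 0.02 in WT and 0.03 in the mutant. Lmna fell to 0.856-fold in WT (−0.22, SE 0.0620, limma adjusted p = 0.00385) and to 0.88-fold in the mutant (−0.19, limma adjusted p = 0.0168), a call that ended without mutant basal array 6 (−0.15, limma adjusted p = 0.0516). In WT, 8.62% of all genes fell further than Midn and 13.4% further than Lmna.

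Some cell type markers were called between the states too, where the shares over all genes in WT were 25.1% higher and 18.2% lower, and 22.6% and 18.7% in the mutant. The 1 choroid plexus marker and the 1 microglial marker called lower in WT are near those shares. Several other counts below, such as 5 of 8 astrocyte and 5 of 12 hippocampal neuron markers lower in WT, are above them. The 0 endothelial and choroid plexus markers called higher are below them. Of 10 endothelial and mural markers, 0 were called higher and 3 lower in WT, and 4 lower in the mutant (limma). Their summed linear signal was 2536 to 2791 in WT basal and 2334 to 2608 in WT learning arrays, and 2589 to 2878 and 2151 to 2447 in the mutant. Of 9 choroid plexus markers, 1 was called lower in WT and 4 in the mutant, with 0 called higher. Of 12 hippocampal neuron markers, 2 were called higher and 5 lower in WT, 1 and 5 in the mutant, and their summed signal was 10325 to 10797 in WT basal and 8264 to 9209 in WT learning arrays. In the mutant it was 10026 to 11286 and 8104 to 8658. With the mean of the choroid plexus markers as a covariate, the 7 rises and both falls were called in each genotype, Lmna at −0.24 in WT (limma adjusted p = 0.00509). Of 8 astrocyte markers, 5 were called lower and 1 higher in WT, and 6 and 0 in the mutant. Of 8 microglial markers 4 were called higher and 1 lower in WT, and 3 and 2 in the mutant. Of 10 interneuron markers 5 were called higher and 3 lower in WT, and 4 and 3 in the mutant. Of 7 oligodendrocyte markers it was 1 and 2, and 2 and 2. Of 7 neocortex and thalamus markers it was 2 and 4, and 0 and 3. Between genotypes, 1 of the 12 hippocampal neuron markers was called lower in the mutant at basal and 1 after learning, against 0.1% and 0.0752% of all genes called. The part of these cell type markers in the results was not tested.

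**Figure D2:**
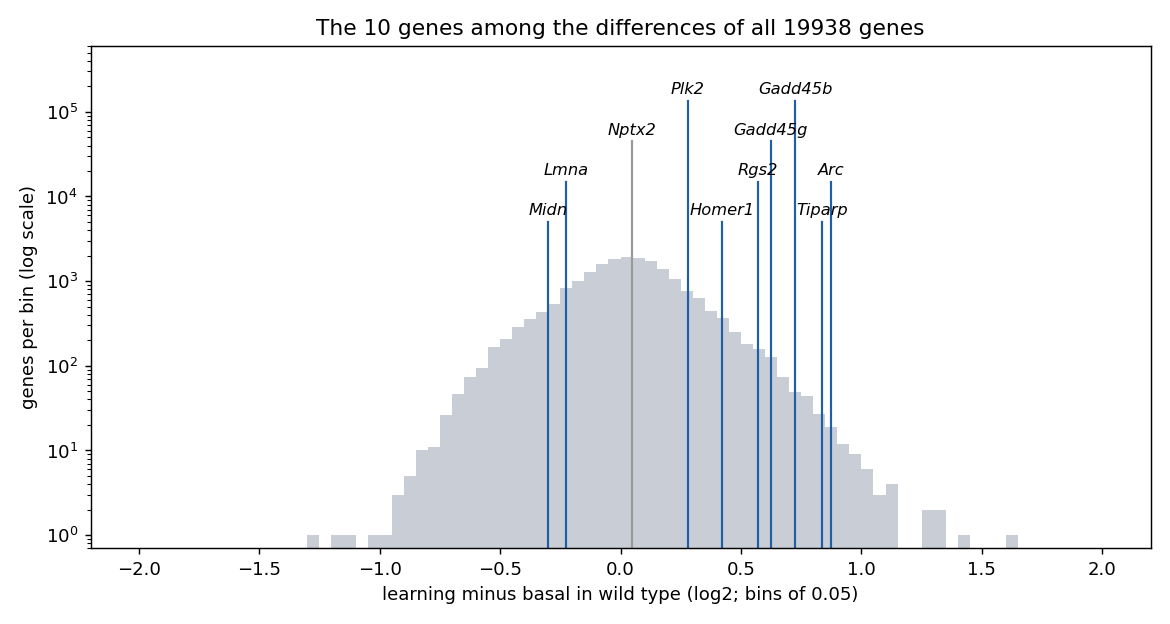
Grey bars count the genes of the table by their learning minus basal difference in WT (log2, bins of 0.05), on a log scale, and vertical lines mark the 10 genes, blue where called by limma and grey where not. Arc, Tiparp and Gadd45b lie in the far right tail, Plk2 and Homer1 nearer the middle, Nptx2 at 0.05, and Lmna and Midn left of 0.

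In the mutant the same 7 genes rose and Midn and Lmna fell, where 41.3% of all genes passed, 22.6% of all genes were called higher and 18.7% lower, and the same 5 were called and higher by at least 0.5 (3.04% of all genes). Every mutant learning array lay above every mutant basal array for 7 genes (10.9% of all genes) and below for Midn (11.8% of all genes). The WT and mutant responses rest on separate arrays. By size the risers came in the order Arc, Tiparp, Gadd45b, Gadd45g, Rgs2, Homer1, Plk2 in both.

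**Figure D3:**
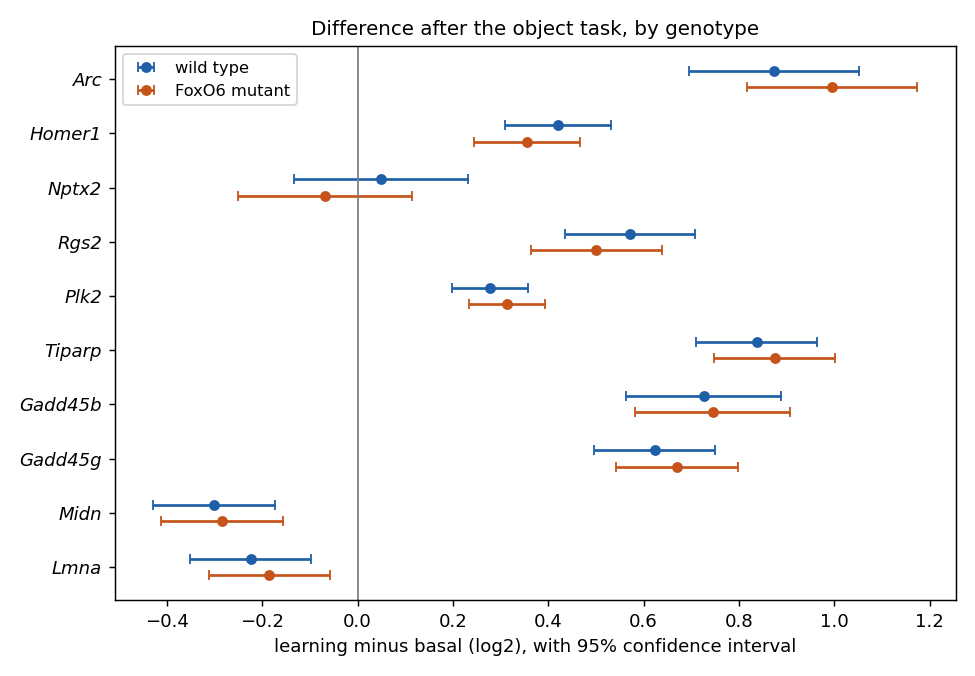
Points give the learning minus basal difference (log2) of each gene in WT (blue) and in the FoxO6 mutant (orange), with 95% confidence intervals from limma, 6 arrays per group. The intervals of the genotypes overlap for all 10 genes, and those of Nptx2 include 0.

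Whether the response depends on FoxO6 was tested as an interaction, the mutant response minus the WT response. It was called for 0 of the 10 genes by limma (unadjusted p 0.335 to 0.871), and for 0% of all genes, of which 2.56% had an unadjusted p under 0.05. The estimate was 0.12 for Arc (95% interval −0.13 to 0.37), −0.06 for Homer1 (−0.22 to 0.09) and −0.12 for Nptx2 (−0.38 to 0.14). For Rgs2 it was −0.07 (−0.26 to 0.12), for Plk2 0.03 (−0.08 to 0.15) and for Tiparp 0.04 (−0.14 to 0.22). Gadd45b gave 0.02 (−0.21 to 0.25), Gadd45g 0.05 (−0.13 to 0.23), Midn 0.02 (−0.16 to 0.20) and Lmna 0.04 (−0.14 to 0.22). The narrowest interval, that of Plk2, allows a mutant fold change (learning over basal) between 0.947 and 1.11 times the WT fold change. On the log2 scale that is −0.08 to 0.15, beside a WT difference of 0.28. The interval of Arc allows 0.913 to 1.30 times the WT fold change. An Arc fold change larger in the mutant by up to that factor was therefore not resolved by 6 arrays a group.

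Between genotypes within a state the levels also showed no called difference: 0 of 10 genes at basal and 0 of 10 after learning, where limma called 0.1% and 0.0752% of all genes, with 4.5% and 7.33% at an unadjusted p under 0.05. Unadjusted p values ran from 0.176 to 0.924 at basal and from 0.131 to 0.948 after learning, so 0 of the 10 were under 0.05 in either state. At basal the mutant minus WT difference was largest for Nptx2, 0.12 (95% interval −0.06 to 0.31), with 4 of 6 mutant arrays above every WT array, and most negative for Gadd45g, −0.09 (−0.21 to 0.04). After learning it was largest for Arc, 0.10 (−0.07 to 0.28), with 2 of 6 mutant arrays above every WT array, and most negative for Rgs2, −0.08 (−0.21 to 0.06). Midn stood higher in the mutant in both states, 0.08 (−0.05 to 0.21) and 0.10 (−0.03 to 0.23). Over both states the 20 intervals ended at −0.24 and 0.31, that is, at 0.849-fold and 1.24-fold. For each riser the order of the 4 groups therefore had the learning groups on top, and the neighbours that differed in genotype alone did not differ beyond their spread. Arc ran mutant learning (mean 10.02), WT learning (9.92), WT basal (9.04) and mutant basal (9.03). Plk2 ran in the same order (11.54, 11.51, 11.24 and 11.23). For Homer1 the order was WT learning (9.99), mutant learning (9.95), mutant basal (9.60) and WT basal (9.56). Rgs2, Tiparp, Gadd45b and Gadd45g ran WT learning, mutant learning, WT basal and mutant basal. Midn ran mutant basal (8.23), WT basal (8.15), mutant learning (7.95) and WT learning (7.85), and Lmna WT basal (7.35), mutant basal (7.33), mutant learning (7.14) and WT learning (7.13).

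**Figure D4:**
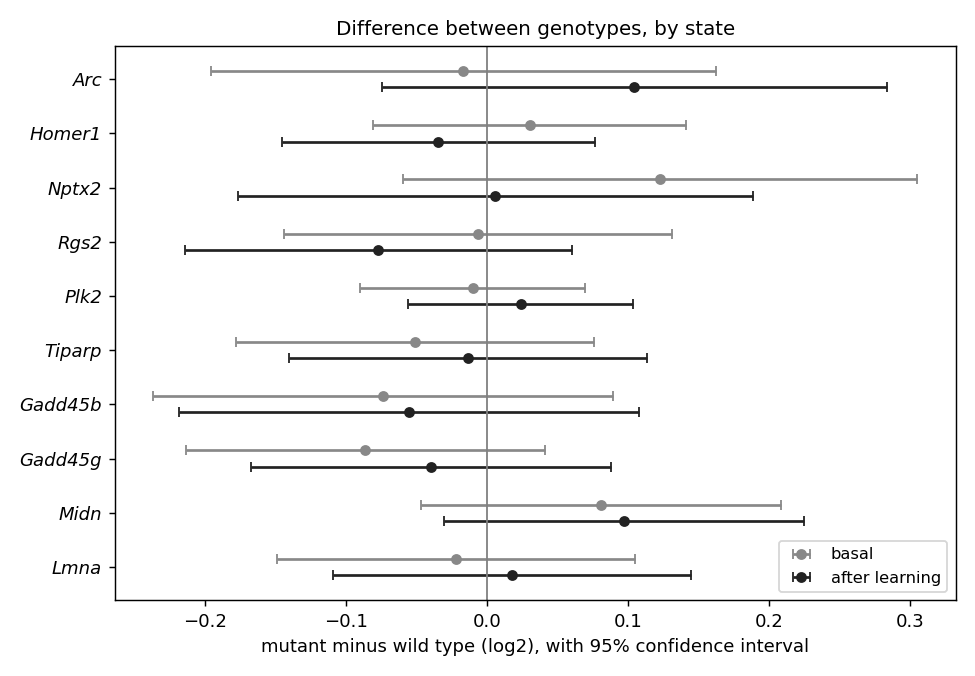
Points give the mutant minus WT difference (log2) of each gene at basal (grey) and after learning (black), with 95% confidence intervals from limma, 6 arrays per group. Each of the 20 intervals includes 0, and Nptx2 at basal reaches furthest, to 0.31.

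Other genes of the same pathways did not all move as the 10 did. The counts of each list stand against 25.1% of all genes called higher and 18.2% lower in WT, and 22.6% and 18.7% in the mutant. The lists too were chosen with earlier results of these data known, so these counts describe the lists and carry no test. Of 42 further activity-induced effectors that were measured, 21 were called higher and 7 lower in WT (limma; median 0.15, against 0.03 over all genes), and 19 and 7 in the mutant (median 0.14). The 7 lower are near the share of all genes. The largest rises were those of Sgk1, a kinase induced by glucocorticoids and activity (1.84-fold, limma adjusted p = 1.70e-11), and Rheb, the GTPase that activates mTORC1 (1.77-fold, limma adjusted p = 1.32e-13). Pmepa1, an inhibitor of TGF-beta signalling, fell to 0.717-fold (limma adjusted p = 1.07e-09) and Vgf, a neuropeptide precursor, to 0.791-fold (limma adjusted p = 1.43e-05). Of 17 activity-induced transcription factors 11 were called higher and 2 lower in WT (median 0.42), the latter below the share of all genes. Fos rose 3.03-fold (limma adjusted p = 3.19e-13) and Egr2 2.10-fold (limma adjusted p = 6.29e-10), while Egr3 fell to 0.868-fold (limma adjusted p = 0.000559) and Fosl2 to 0.906-fold (limma adjusted p = 0.0339). In the mutant 11 rose and 1 fell, with Fos at 3.31-fold.

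Genes of Arc and Homer partners at the postsynapse were mostly lower after the task, while Arc and Homer1 were higher. Of 19 measured, 2 were called higher and 15 lower in WT (limma; median −0.34), where 18.2% of all genes were called lower. In the mutant 1 was higher and 16 lower (median −0.30), against 18.7% of all genes lower. The scaffold genes Shank1 (0.564-fold, limma adjusted p = 3.46e-12) and Shank2 (−0.68 on the log2 scale, limma adjusted p = 9.91e-12) fell most. Homer2, a long-form relative of Homer1, rose 1.21-fold (limma adjusted p = 0.0108), and Sh3gl3, an endophilin that binds Arc, rose 1.14-fold (limma adjusted p = 0.0176). Around Nptx2, its relative Nptx1 fell to 0.683-fold (limma adjusted p = 2.15e-10), as did the AMPA receptor subunit Gria1 (0.829-fold, limma adjusted p = 2.82e-08). The subunits Gria4 (1.19-fold, limma adjusted p = 0.000448) and Gria3 (1.11-fold, limma adjusted p = 0.00246) rose, and the median of the 5 genes was 0.08.

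Near Rgs2, 7 of 11 small RGS and Gq genes were called higher and 1 lower in WT (limma; median 0.26), where 25.1% of all genes were called higher and 18.2% lower. The mutant again had 7 higher and 1 lower, against 22.6% and 18.7%. Rgs4 (1.51-fold, limma adjusted p = 2.12e-08) and Rgs16 (1.38-fold, limma adjusted p = 2.89e-07), which also limit Gq and Gi signalling, had the largest rises in WT, and the Gq family subunit Gna11 fell to 0.874-fold (limma adjusted p = 3.54e-05). Among 9 further Polo-like kinases and Gadd45 partners 3 were called higher and 1 lower in WT (limma; median 0.05), and 2 and 2 in the mutant (median −0.02), near the shares of all genes. Beside Gadd45a, the genes called in WT were Pcna, the DNA clamp that Gadd45 proteins bind, at 1.30-fold (limma adjusted p = 4.50e-08), Plk4 at 1.21-fold (limma adjusted p = 0.00324), and Plk5, which fell to 0.769-fold (limma adjusted p = 7.56e-05). Plk4, a kinase of centriole duplication, is named after its values were seen. The aryl hydrocarbon receptor pathway of Tiparp had 2 higher and 2 lower of 7 in WT (limma; median −0.04) and 1 and 1 in the mutant (median 0.04), which is near or below the shares of all genes. The receptor's target genes Cyp1b1 (1.26-fold, limma adjusted p = 0.00363) and Nqo1 (1.19-fold, limma adjusted p = 0.0125) were higher, and its partners Arnt2 (0.789-fold, limma adjusted p = 1.49e-06) and Arnt (0.889-fold, limma adjusted p = 0.0468) lower.

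Of 12 nuclear lamina and envelope genes beside Lmna, 3 were called higher and 3 lower in WT (limma; median −0.04), near the 25.1% and 18.2% of all genes. In the mutant 1 was called higher and 3 lower, against 22.6% and 18.7%. The lamin B receptor Lbr rose 1.28-fold (limma adjusted p = 9.92e-06) and Zmpste24, the protease that matures lamin A, 1.18-fold (limma adjusted p = 0.00315). The linkers Sun2 (0.854-fold, limma adjusted p = 0.0143) and Syne1 (0.868-fold, limma adjusted p = 0.0181) fell. Among 16 receptors, kinases and factors that drive activity genes, 3 were called higher and 9 lower in WT (limma; median −0.32), against 25.1% and 18.2% of all genes. The mutant had 3 higher and 10 lower (median −0.33). The transcription factor Creb1 rose 1.28-fold (limma adjusted p = 8.59e-06) and Elk4, a partner of SRF, 1.24-fold (limma adjusted p = 0.000754). Mef2d, a calcium-responsive factor, fell to 0.583-fold (limma adjusted p = 7.86e-15) and Crtc1, a coactivator of CREB, to 0.637-fold (limma adjusted p = 1.22e-11). Of the genes named here from the lists, Homer2, Plk4, Cyp1b1, Arnt, Zmpste24, Sun2 and Fosl2 were called in WT and not in the mutant, where their limma adjusted p values ran from 0.0747 (Sun2) to 0.68 (Fosl2). Of all 9 pathway lists, 0 genes were called between genotypes in either state or for the interaction, where limma called 0.1%, 0.0752% and 0% of all genes.

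The 10 genes were also set against each other within groups, by the deviation of each array from its group mean, which takes out the difference between states. These correlations describe 24 arrays that share dissection and normalization, and carry no test. Over the 45 pairs Pearson's r ran from −0.63 to 0.57 with a median of 0.12. Among the 21 pairs of the 7 risers it was above 0 in 18 (median 0.23). Rgs2 and Plk2 were the most alike (r = 0.57), followed by Rgs2 and Tiparp (0.55) and by Rgs2 and Gadd45g (0.47). Lmna ran against Plk2 (−0.63), Homer1 (−0.56) and Tiparp (−0.52), so arrays with more Plk2 than the rest of their group tended to have less Lmna. Some pairs differed between the states: Rgs2 and Midn gave 0.31 over the 12 basal arrays and −0.81 over the 12 learning arrays, a difference that was not tested.

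**Figure D5:**
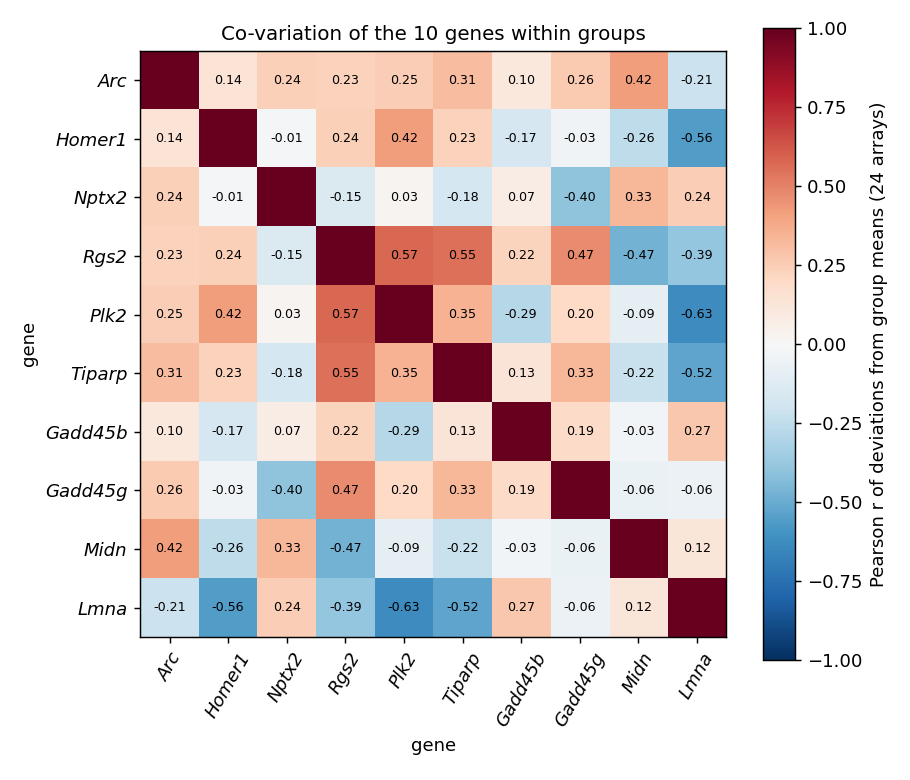
Each cell gives Pearson's r between 2 of the 10 genes over the deviations of 24 arrays from their group means (red above 0, blue below 0). The diagonal, each gene with itself, is filled red without a number. Rgs2, Plk2, Tiparp and Gadd45g form a patch of positive values (0.20 to 0.57), and the row of Lmna is blue for Plk2, Homer1, Tiparp and Rgs2.

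Over the whole table, the genes whose deviations were most like those of Arc were Tmem30a, a subunit of lipid flippases (r = 0.74 over 24 arrays), and Atp1b1, a subunit of the sodium pump (0.69). Homer1 was most like Klhl2, an adaptor of a ubiquitin ligase (0.88), and Ccnt2, a cyclin of transcription elongation (0.84), and both held within basal arrays (0.90 and 0.87) and within learning arrays (0.85 and 0.91). Neither of them was called between states by limma (adjusted p = 0.146 and 0.466 in WT). Nptx2 was most like the connexin gene Gjd4 (0.79) and the kinase Wnk2 (0.73), the latter at 0.36 in basal and 0.85 in learning arrays. Lmna was most like Spns3 (0.85), a transporter family member, and Col5a3 (0.83), a collagen chain. Between states in WT, Tmem30a was called higher (0.17, limma adjusted p = 0.000834) and Wnk2 lower (−0.43, limma adjusted p = 1.10e-08). Atp1b1, Gjd4, Spns3 and Col5a3 were not called. All these genes were picked as the most alike of the whole table, so high values can come from the picking alone.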

How the data were processed

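Hippocampal RNA was hybridised to 24 arrays, 6 per group, per the labels. The authors deposited log2 values made with RMA, per the submitters' processing notes; which RMA version and chip definition were used is not stated in the sources used here. The table has 35511 probes, and 21789 carry 1 symbol in the platform annotation of 2016. For genes with several such probes the one with the highest mean was kept, which left 19938 genes, with no filter on dim genes.

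R 4.3.3 and limma 3.58.1 fitted 1 mean per group over all 24 arrays (20 residual degrees of freedom), with eBayes and a mean-variance trend. The 5 comparisons were learning minus basal in each genotype, mutant minus WT in each state, and the interaction. Tests are two-sided, with Benjamini-Hochberg adjustment over the whole table and 0.05 as the threshold for a call. The code was tested on simulated data. The 10 genes and the lists were chosen with earlier results of these data known.

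The rule for other genes was as follows. From each pathway list the 2 called genes with the largest rise and the 2 with the largest fall in WT are named, and for Arc, Homer1, Nptx2 and Lmna the 2 genes most like them within groups. Clone and model names, pseudogenes and olfactory or vomeronasal receptors were skipped there. Alternatives were another probe rule, other scalings, a filter on dim genes, a replicate block, array weights, no trend, fewer groups in the model, a covariate and each array left out. Replicate numbers were not used to pair the arrays in the main model.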

Additional observations from a re-analysis of the deposited data

Results flagged for a closer look

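Of 40 groups of 6 arrays (10 genes in 4 groups), 1 held an array far from the others. Plk2 in WT basal array 6 was 11.08, and the nearest of the other arrays was 11.25. Chance flags about 1 in 20 groups. Without that array the WT response of Plk2 was 0.25 on the log2 scale in place of 0.28, the lowest of the 24 values with 1 array left out, and it was called by limma each time (adjusted p up to 4.53e-06).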

How the results depend on the processing

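The counts of called genes among the 10 were 9 in WT, 9 in the mutant and 0 between genotypes and for the interaction under each of 9 other settings where they could be fitted (the model of only the groups compared has no interaction). With each of the 24 arrays left out they were 9 in WT, 8 to 9 in the mutant and 0 in the other comparisons. With the replicate number as a block, 9, 9, 0, 0 and 0 were called, and over all genes 8634 in WT and 8261 in the mutant against 8636 and 8231. Most same-numbered arrays did not deviate together (r over 0.1 in 7 of 36 pairs, median −0.01, and 3 of 24 arrays were most like one of their own number). The highest r, 0.45, was that of mutant basal and WT learning arrays 2. Mutant learning array 2 gave 0.26 with each of these. WT basal array 2 gave −0.24 with mutant basal, −0.15 with WT learning and 0.005 with mutant learning array 2. The numbers were not used as a pairing in the main model. With a second quantile normalization the WT rises of Arc and Homer1 were 0.83 and 0.38, in place of 0.87 and 0.42. The WT fall of Midn was −0.33 in place of −0.30. Over all genes the count called between genotypes moved from 20 at basal to 51 with array weights, 7 without a trend, 11 with only the groups compared, and 6 to 26 with an array left out. After learning it moved from 15 to 9 with array weights, 9 without a trend, 7 with only the groups compared, 20 with a second quantile normalization, and 8 to 17 with an array left out. Small uncalled differences changed sign: Rgs2 at basal to 0.030 and Nptx2 after learning to −0.0047 with the choroid plexus covariate, Tiparp after learning to 0.0041 with a second quantile normalization, and the interaction of Gadd45b to −0.036 with array weights. With 1 array left out, the genotype difference at basal ranged from −0.10 to 0.054 for Arc, −0.011 to 0.068 for Homer1, −0.031 to 0.0345 for Rgs2, −0.042 to 0.011 for Plk2 and −0.052 to 0.014 for Lmna. After learning it ranged from −0.055 to 0.070 for Nptx2, −0.056 to 0.011 for Tiparp and −0.017 to 0.044 for Lmna. The interaction ranged from −0.0086 to 0.062 for Tiparp, −0.029 to 0.071 for Gadd45b and −0.026 to 0.057 for Midn, and the WT response of Nptx2 from −0.0035 to 0.10. The cause was not tested. Signal over background was not used, so how far dim probes limit these values is not known.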
